A study of Homo sapiens with 6 samples.

Results

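A set of 10 genes that build, cut or protect the extracellular matrix were followed in osimertinib-resistant lung cancer cells: the matrix metalloproteinase genes MMP1, MMP2, MMP7 and MMP14, the inhibitor genes TIMP1, TIMP2 and TIMP3, and the matrix genes FN1, SPARC and TNC. They were taken by symbol from the series table, where all 10 were found among 20356 genes, and the rule that picks them is a list of names with no threshold on a value. The 6 RNA-seq libraries come from H1975, a human lung adenocarcinoma line with mutant EGFR. In 3 libraries the cells were the parental line grown under normal conditions, and in the other 3 they were its osimertinib-resistant derivative, H1975 OR, treated with 1 µM osimertinib, an inhibitor of mutant EGFR. Both were grown in RPMI-1640 with serum, and the series describes the 3 libraries of each group as biological replicates. There is 1 resistant line and it was measured with the drug present, so resistance, drug exposure and other changes of this derivative cannot be told apart.

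Matrix metalloproteinases (MMPs) are zinc-dependent enzymes that are made as inactive precursors and cut matrix and cell surface proteins. MMP1 is an interstitial collagenase, MMP2 a gelatinase, MMP7 (matrilysin) a small epithelial protease and MMP14 (MT1-MMP) a membrane-anchored collagenase that also activates the MMP2 precursor. The tissue inhibitors of metalloproteinases (TIMPs) bind the active site, and TIMP2 also takes part in the activation of MMP2 by MMP14, while TIMP3 is held in the matrix. Fibronectin (FN1) is a fibrillar ligand of integrins, and SPARC and tenascin-C (TNC) are matricellular proteins, which modulate contact between cells and matrix more than they carry load.

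The stretch before the start site is shown for the tested gene of the set that was higher by the widest margin (MMP14), the one that was lower (FN1), and MMP7, an AP-1 gene in the textbooks. Each line holds the 250 bases before the RefSeq start (GRCh38.p14), 5′ to 3′, with capitals at matches to 5 motifs searched on both strands. Promoters were found for 7 of the 10 genes, and MMP1, MMP2 and TIMP2 had no entry.
MMP14 chr14:22836335-22836584 (+ strand): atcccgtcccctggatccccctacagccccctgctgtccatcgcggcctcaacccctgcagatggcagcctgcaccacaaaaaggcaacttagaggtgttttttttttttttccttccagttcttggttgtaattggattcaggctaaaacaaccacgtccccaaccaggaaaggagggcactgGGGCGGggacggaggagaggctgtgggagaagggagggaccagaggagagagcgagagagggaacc
FN1 chr2:215436069-215436318 (- strand): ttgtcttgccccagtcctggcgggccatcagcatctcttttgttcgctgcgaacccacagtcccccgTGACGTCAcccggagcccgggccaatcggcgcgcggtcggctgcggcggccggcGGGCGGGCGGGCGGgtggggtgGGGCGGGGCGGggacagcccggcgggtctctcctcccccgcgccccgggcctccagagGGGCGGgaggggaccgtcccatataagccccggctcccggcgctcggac
MMP7 chr11:102530748-102530997 (- strand): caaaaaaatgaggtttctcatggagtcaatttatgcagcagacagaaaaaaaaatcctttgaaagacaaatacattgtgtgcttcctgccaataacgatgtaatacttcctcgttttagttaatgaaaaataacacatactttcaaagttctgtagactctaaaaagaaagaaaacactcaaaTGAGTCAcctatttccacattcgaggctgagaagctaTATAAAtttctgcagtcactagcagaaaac

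The capitals in the MMP14 stretch mark 1 GC box (GGGCGG), 66 bases before the start. Those in the FN1 stretch mark a cAMP response element (TGACGTCA) 183 bases before the start and 6 GC boxes, some of which overlap each other. MMP7 held an AP-1 site (TGANTCA) 67 bases and a TATA box (TATAAA) 30 bases before the start. Of all 35116 promoter entries cut to the same 250 bases, 6.57% held the AP-1 site, 1.65% the cAMP response element, 42.6% the GC box and 10.7% the TATA box. The fifth motif, the ZEB-type E-box CACCTG, was in 17.5% of entries and in 0 of the 7. The bases were 56.8% G or C in MMP14, 76.4% in FN1 and 33.6% in MMP7. A match is a string of letters, not a measured binding site.

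Values are FPKM, fragments per kilobase of transcript scaled to the size of the library, as deposited by the authors. They are per length, but a comparison between genes also depends on the measure. In parental replicate 1, TIMP1 was at 87.4 FPKM and a mean coverage per base of 440, and SPARC at 34.5 FPKM and 378. Reads per library are unknown. The ratio of deposited coverage to FPKM put the mapped sequence at 9.72 to 14.73 gigabases, with the deepest library in the parental group. A gene entered the test when its mean reached 1 FPKM in one of the groups or in both. Each difference is the resistant mean of log2(FPKM + 1) less the parental mean, so changes of low genes are understated. Of 6 epithelial markers all were lower in resistant cells, with a summed level of 2949 to 3466 FPKM in parental and 915 to 992 in resistant libraries. The keratin genes KRT7, KRT8 and KRT18 stayed above 200 FPKM in each resistant library, while EPCAM fell from a mean of 210.7 to 1.02 FPKM, KRT19 from 574.3 to 4.58 FPKM and CDH1 (E-cadherin) from 68.6 to 0.0248 FPKM. Of 2 markers of lung adenocarcinoma lines, the lung lineage factor gene NKX2-1 was listed at 0 in each resistant library. The other, EGFR, went from a mean of 31.7 to 16.9 FPKM. Markers of other cell types were summed as well: 9 fibroblast markers at 2.44 to 2.97 FPKM in parental and 18.1 to 22.03 in resistant libraries, 6 leukocyte markers at 28.0 to 31.2 and 69.8 to 79.6, and 3 endothelial markers at 0.620 to 0.762 and 1.08 to 1.41. DCN and CD3E were at 0 throughout and COL3A1, LUM, PDGFRA, PTPRC and MS4A1 were under 1 FPKM, while COL1A1, PDGFRB, CD14 and CD68 were higher in resistant cells and CSF1R was lower, from 4.54 to 0.373 FPKM. These markers were picked out after their values were seen, except those the naming rule takes. The part of such cells in the results below was not tested beyond these levels, and in bulk RNA a change in the share of cells cannot be told apart from a change in RNA per cell.

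The main shift among the 10 genes was a rise of MMP14 and a fall of FN1, with smaller rises of SPARC, TIMP2 and TIMP1. TNC did not pass the test, MMP1, MMP2 and MMP7 were below the level tested in both groups, and TIMP3 was listed at 0. Of the 6 genes tested 4 were higher and 1 lower at a false discovery rate (FDR) of 0.05 (limma on log2 values, Benjamini-Hochberg over 12107 genes), where 78.0% of all tested genes were called, 39.9% higher and 38.1% lower. With a difference of at least 1 on the log2 scale added, 2 of the 6 were higher and 1 lower, against 9.95% and 9.39% of all tested genes. In 5 of the 6 the libraries of the groups did not overlap, as in 79.8% of all tested genes. The median difference of the 6 was 0.31, and that of all tested genes 0.01. The 6 passed the filter in both groups, and with 6 genes neither count is read as particular to the set.

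**Figure D1:**
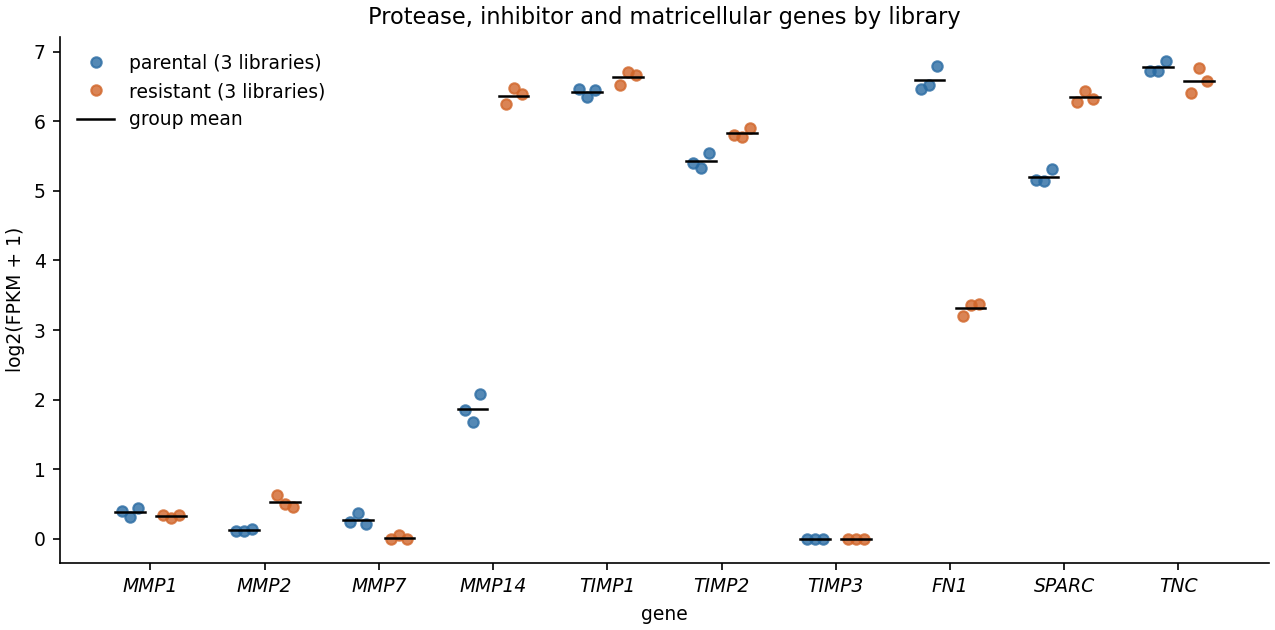
Expression of the 10 genes as log2(FPKM + 1) on the vertical axis, with 1 point per library (3 parental in blue, 3 resistant in orange) and a black line at each group mean. MMP14 and FN1 move far apart between the groups in opposite directions, the TNC points overlap, and MMP1, MMP2, MMP7 and TIMP3 stay near the floor.

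MMP14, the membrane-anchored collagenase (ENSG00000157227, chr14:23305766-23318236 on GRCh37), read 2.60, 2.20 and 3.25 FPKM in the 3 parental replicates, against 75.0, 87.8 and 82.6 FPKM in the resistant ones. The lowest resistant library lay far above the highest parental one. The means were 2.68 ± 0.531 and 81.8 ± 6.44 FPKM (SD, n = 3 per group), a ratio of 30.5. On the log2(FPKM + 1) scale MMP14 rose by 4.50 ± 0.10 (SE, limma adjusted p = 1.8e-11), the 23rd largest rise among the 12107 genes tested. That rank depends on the added 1 FPKM, with which MMP19 rose by 2.24. With 0.1 FPKM added MMP14 rose by 4.90 and MMP19 by 4.98. By level it moved from rank 9991 in parental cells to rank 745 in resistant cells. Its mean coverage per base was 10.1 to 16.3 in parental and 340 to 409 in resistant libraries.

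The soluble proteases were scarce. MMP2, the gelatinase that MMP14 activates (ENSG00000087245, chr16:55423612-55540603), read 0.0784, 0.0775 and 0.109 FPKM in parental cells, against 0.547, 0.413 and 0.372 FPKM in resistant cells. The groups did not overlap and the ratio of means was 5.03, at a coverage of at most 2.05 per base. MMP7, matrilysin (ENSG00000137673, chr11:102391239-102401484), was at 0.178, 0.291 and 0.155 FPKM in parental libraries and was listed at 0, 0.0359 and 0 in resistant ones, also without overlap. MMP1, the collagenase (ENSG00000196611, chr11:102660651-102668891), was at 0.314, 0.242 and 0.365 FPKM in parental and 0.264, 0.237 and 0.269 FPKM in resistant libraries, and these overlap.

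Since MMP1, MMP2 and MMP7 had means under 1 FPKM in both groups, they were not part of the test. Without the filter, when 61.1% of 18038 genes were called, MMP2 was higher by 0.41 ± 0.05 (limma adjusted p = 0.00045) and MMP7 lower by 0.25 on the same scale (difference -0.25 ± 0.04, limma adjusted p = 0.0029). MMP1 did not pass there (difference -0.06 ± 0.04, limma adjusted p = 0.253, 95% interval -0.15 to 0.04). On TPM, which is larger per gene, MMP2 came above the filter and was higher by 0.76 ± 0.11 (limma adjusted p = 7.2e-05). The 4 protease genes together summed to 3.28 ± 0.545 FPKM in parental and 82.5 ± 6.38 FPKM in resistant cells. MMP14 held 81.6% of the parental sum and 99.1% of the resistant one.

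TIMP1 and TIMP2 were abundant in both groups and rose slightly. TIMP1, an inhibitor of most soluble MMPs that acts weakly on MMP14 (ENSG00000102265, chrX:47441712-47446188), was at 87.4, 80.6 and 86.2 FPKM in parental and 91.2, 103.9 and 100.3 FPKM in resistant libraries. Every resistant library lay above every parental one, by a narrow margin, and the ratio of means was 1.16. The log2 difference was 0.21 ± 0.07 (limma adjusted p = 0.012, 95% interval 0.07 to 0.36). Without parental replicate 2, the lowest library, it was 0.18 (limma adjusted p = 0.0589) and no longer passed.

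TIMP2, which inhibits MMP14 and bridges it to the MMP2 precursor (ENSG00000035862, chr17:76849059-76921469), was at 41.4, 39.1 and 45.6 FPKM in parental and 54.8, 53.9 and 58.7 FPKM in resistant libraries. These did not overlap, and TIMP2 rose by 0.40 ± 0.07 (limma adjusted p = 0.00017), a ratio of means of 1.33. Both TIMP genes moved far less than MMP14, and their sum with TIMP3 went from 126.8 ± 6.27 to 154.3 ± 7.23 FPKM.

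TIMP3, the inhibitor bound to matrix (ENSG00000100234, chr22:33197687-33259030), was listed at 0 FPKM and 0 coverage in all 6 libraries. It was 1 of 2318 genes of the table at 0 throughout. An exact 0 in these files can be a failed estimate, since 8 genes were at 0 in a library and above 5 FPKM in another of the same group, so the value is given as listed and without a limit. TIMP3 lies inside SYN3, a synapsin gene on the opposite strand (chr22:32908539-33454358), which was at 0.00765, 0 and 0.0123 FPKM in parental and 0.180, 0.230 and 0.223 FPKM in resistant libraries. TIMP1 lies in the same way inside SYN1, which reached at most 0.0602 FPKM in a library. Whether the authors' counting used strand is not given in the sources used here, so reads of such pairs may be shared. All other genes that overlap one of the 10 were at most 0.101 FPKM.

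Set against its inhibitor within a library, MMP14 changed places with TIMP2 by FPKM. These are RNA levels, and neither protein nor protease activity was measured in these libraries. The ratio of MMP14 to TIMP2 in FPKM was 0.0628, 0.0561 and 0.0712 in parental libraries and 1.37, 1.63 and 1.41 in resistant ones. So by FPKM TIMP2 was the more abundant in each parental library and MMP14 in each resistant one. By mean coverage per base MMP14 was above TIMP2 only in resistant replicate 2. It was 10.1 to 16.3 for MMP14 and 271 to 394 for TIMP2 in parental libraries. In resistant replicates 1, 2 and 3 it was 340, 368 and 409 for MMP14 and 376, 339 and 434 for TIMP2. As log2 ratios with 1 FPKM added to each gene, the means were -3.56 ± 0.0973 and 0.54 ± 0.132 (SD, n = 3), a difference of 4.10 (exact two-sided permutation p = 0.10). That is the smallest p that 3 against 3 libraries allow, so no ratio can pass 0.05, and over the 4 ratios computed the adjusted value was 0.133.

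The log2 ratio of MMP1 to TIMP1 was lower in resistant cells by 0.27 (difference -0.27, exact permutation p = 0.10, adjusted 0.133) and that of MMP7 to TIMP1 differed by -0.47 (exact permutation p = 0.10, adjusted 0.133). In both, the groups did not overlap. The ratio of MMP2 to TIMP2 differed by 0.0042 (exact permutation p = 1, adjusted 1) and its libraries overlapped. The added 1 FPKM shapes these 3 ratios, whose proteases are all below it. With 0.1 FPKM added the difference was 1.11 for MMP2 to TIMP2, -0.39 for MMP1 to TIMP1 and -1.67 for MMP7 to TIMP1 (exact permutation p = 0.10 for each). In plain FPKM, MMP2 to TIMP2 had a mean of 0.00209 in parental and 0.00799 in resistant libraries, and the groups did not overlap. MMP7 to TIMP1 had a mean of 0.00249 in parental and 0.000115 in resistant libraries, and MMP1 to TIMP1 one of 0.00361 and 0.00262. TIMP1 itself, the denominator of both, differed by 0.21.

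**Figure D2:**
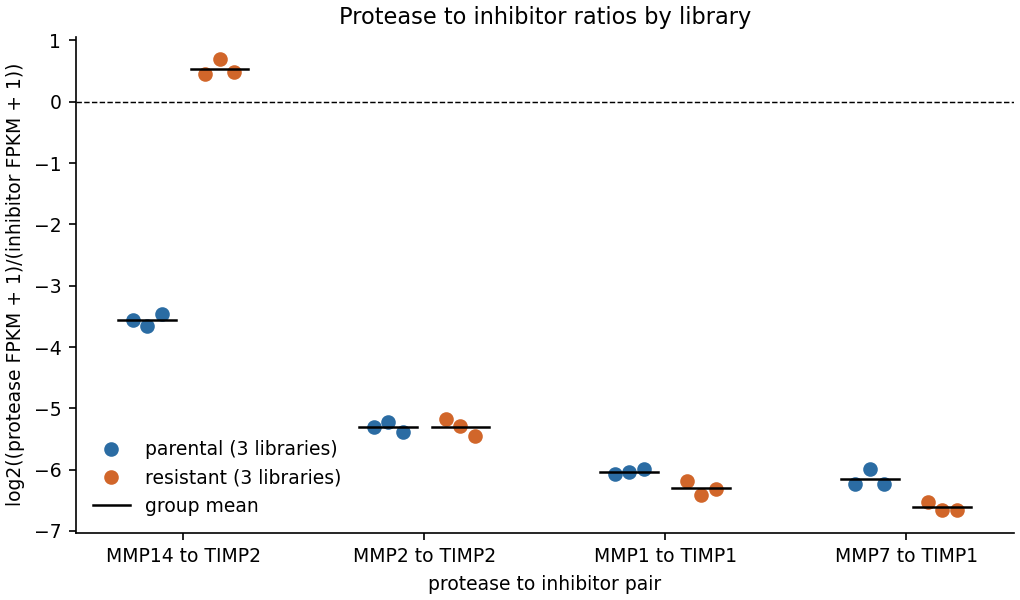
Log2 ratio of each protease to an inhibitor, with 1 FPKM added to both, for 4 pairs on the horizontal axis. Points are libraries (3 parental in blue, 3 resistant in orange), black lines are group means and the dashed line is an equal level. The MMP14 to TIMP2 ratio crosses the dashed line between the groups, from a mean of -3.56 to 0.54, and the other 3 pairs stay below -5.

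Fibronectin went the opposite way. FN1 (ENSG00000115414, chr2:216225163-216300895) was at 87.2, 90.3 and 109.5 FPKM in parental and at 8.21, 9.30 and 9.39 FPKM in resistant libraries. No libraries overlapped, and the parental mean was 10.7 times the resistant one. FN1 fell by 3.27 on the log2 scale (difference -3.27 ± 0.09 SE, limma adjusted p = 1.2e-11), the 92nd largest fall among the genes tested. The rank of this fall, too, depends on the added 1 FPKM. By level FN1 went from rank 682 to rank 6724.

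SPARC, a collagen-binding matricellular protein (ENSG00000113140, chr5:151040657-151066726), was at 34.5, 34.4 and 38.6 FPKM in parental and at 76.4, 85.7 and 79.2 FPKM in resistant libraries. The groups lay well apart. SPARC rose by 1.14 ± 0.07 (limma adjusted p = 1.0e-08), with a ratio of means of 2.24.

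Tenascin-C is an adhesion-modulating protein of remodelled matrix. TNC (ENSG00000041982, chr9:117782806-117880536) was at 104.9, 104.7 and 115.9 FPKM in parental and at 83.8, 107.9 and 94.4 FPKM in resistant libraries. Resistant replicate 2 lay within the parental range and the other 2 below it. The difference of -0.19 ± 0.09 did not pass (limma adjusted p = 0.0651, 95% interval -0.38 to 0.00166). Without resistant replicate 2 it was -0.28 (limma adjusted p = 0.0067) and passed, and over all alternatives the adjusted p ran from 0.0067 to 0.27. The sum of FN1, SPARC and TNC was 240.0 ± 20.8 FPKM in parental and 184.8 ± 17.3 FPKM in resistant cells, and the share of FN1 in it was 39.9% and 4.85%.

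**Figure D3:**
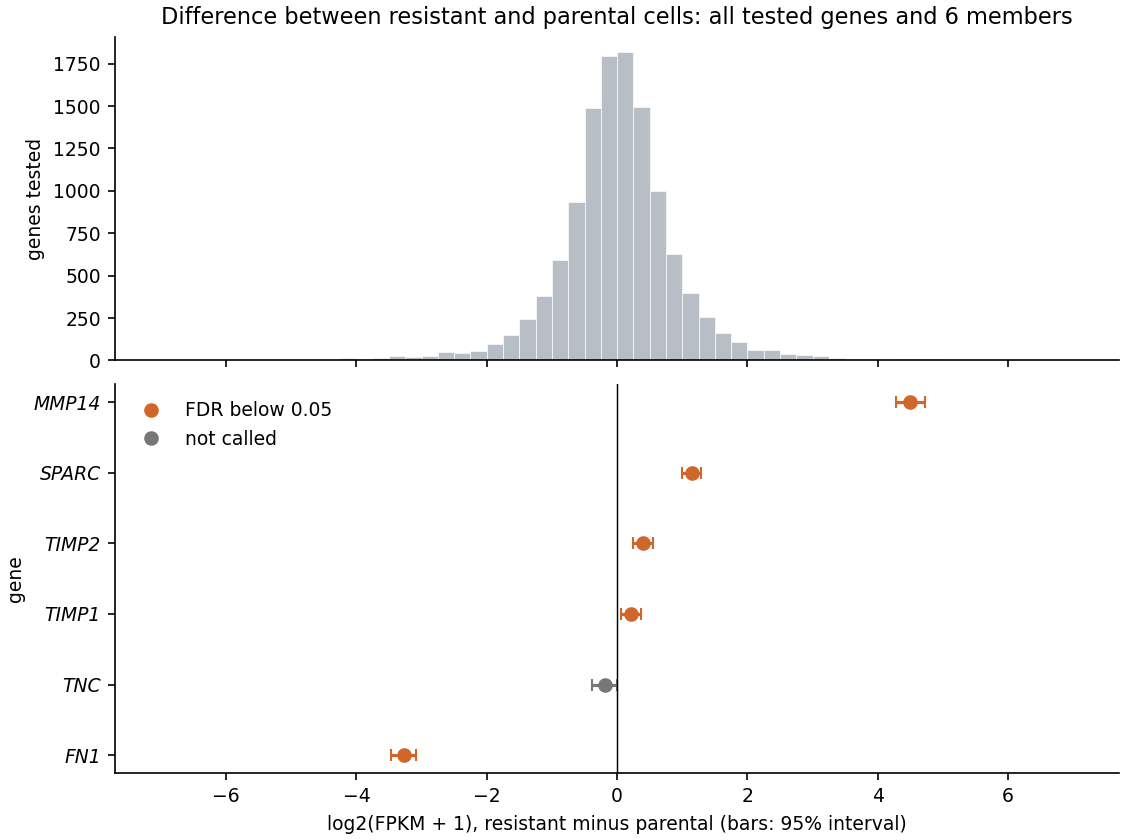
Upper panel, histogram of the difference in log2(FPKM + 1), resistant minus parental, over the 12107 tested genes. Lower panel, the same difference for the 6 tested genes of the set with 95% intervals, orange where the FDR was below 0.05 and grey for TNC. MMP14 at 4.50 and FN1 at -3.27 lie in the tails, while TIMP1, TIMP2 and TNC lie in the central mass.

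The order of FPKM levels differed between the groups. In parental cells it ran TNC, FN1, TIMP1, TIMP2, SPARC, MMP14, MMP1, MMP7, MMP2 and TIMP3. Among neighbours in that order the ranges over libraries overlapped for TNC and FN1, FN1 and TIMP1, and MMP1 and MMP7. Compared within a library, TNC was above FN1 in each parental library, while the order of the other overlapping pairs changed between libraries. In resistant cells it ran TIMP1, TNC, MMP14, SPARC, TIMP2, FN1, MMP2, MMP1, MMP7 and TIMP3. There the ranges of TIMP1 and TNC, TNC and MMP14, MMP14 and SPARC, and MMP7 and TIMP3 overlapped. Within each resistant library TNC was above MMP14. MMP14 thus stood among the 4 most abundant genes of the set by FPKM in resistant cells, and FN1 stood below TIMP2. The order depends on the measure. By mean coverage per base SPARC was at 601 to 677 in resistant libraries and TIMP1 at 323 to 390, the reverse of their FPKM order.

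Spread between libraries of a group was 4.28% to 12.6% of the mean (coefficient of variation) for the tested genes, except MMP14 in parental cells at 19.8%. The other 12106 tested genes were searched for the profile nearest to each called member, by Euclidean distance over the log2(FPKM + 1) values of the 6 libraries. Nearest to MMP14 was the kinase gene MAP3K8 (distance 0.453), at means of 3.22 and 76.3 FPKM. Nearest to FN1 was ZNF114 (0.525), at 88.1 and 7.88 FPKM, and nearest to SPARC was PICALM (0.238), at 36.8 and 74.0 FPKM. GALNT2 was nearest to TIMP2 (0.183) and VAT1 to TIMP1 (0.139). These are neighbours in level and difference over 6 libraries and no more.

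The rest of the MMP family was divided. Of the 19 other MMP genes listed 18 were found, 7 were tested, and 3 were higher and 3 lower, with a median difference of 0.02. The counts of this list and those below stand beside 39.9% of all tested genes called higher and 38.1% called lower. In 3 of the 7 the mean reached 1 FPKM in only 1 group, so some difference in means was built in, though not its size. MMP17, anchored to the membrane by a lipid (chr12:132312938-132336328), rose from 2.92 ± 0.260 to 9.92 ± 1.36 FPKM (log2 difference 1.47, limma adjusted p = 2.3e-08). MMP15, a transmembrane relative of MMP14 (chr16:58059470-58080805), fell from 9.82 ± 1.23 to 4.11 ± 0.807 FPKM (log2 difference -1.09, limma adjusted p = 2.0e-05). MMP14 thus had, among all MMP genes of the table, the highest level in resistant cells, with MMP17 next.

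The other 3 named here were chosen after their values were seen. MMP19 was at 0.0399, 0.0321 and 0.00789 FPKM in parental and 3.75, 3.71 and 4.14 FPKM in resistant libraries. MMP13, a collagenase, was at 1.98, 1.54 and 1.92 FPKM in parental libraries and listed at 0 in each resistant one. MMP28 (epilysin) went from 1.89 ± 0.365 to 0.147 ± 0.0521 FPKM.

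MMP1, MMP7 and MMP13 belong to a cluster of MMP genes on chromosome 11. Of its 9 listed genes 8 were found, and their summed level was 2.10 to 2.51 FPKM in parental and 0.493 to 0.743 FPKM in resistant libraries. The members did not move as a block. MMP13 and MMP7 were lower in resistant cells, MMP1 overlapped between groups, MMP3 (stromelysin-1) was at most 0.0113 FPKM in parental and 0.229, 0.471 and 0.278 FPKM in resistant libraries, and MMP8 and MMP27 were listed at 0. Only MMP13 of the cluster reached the level tested.

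**Figure D4:**
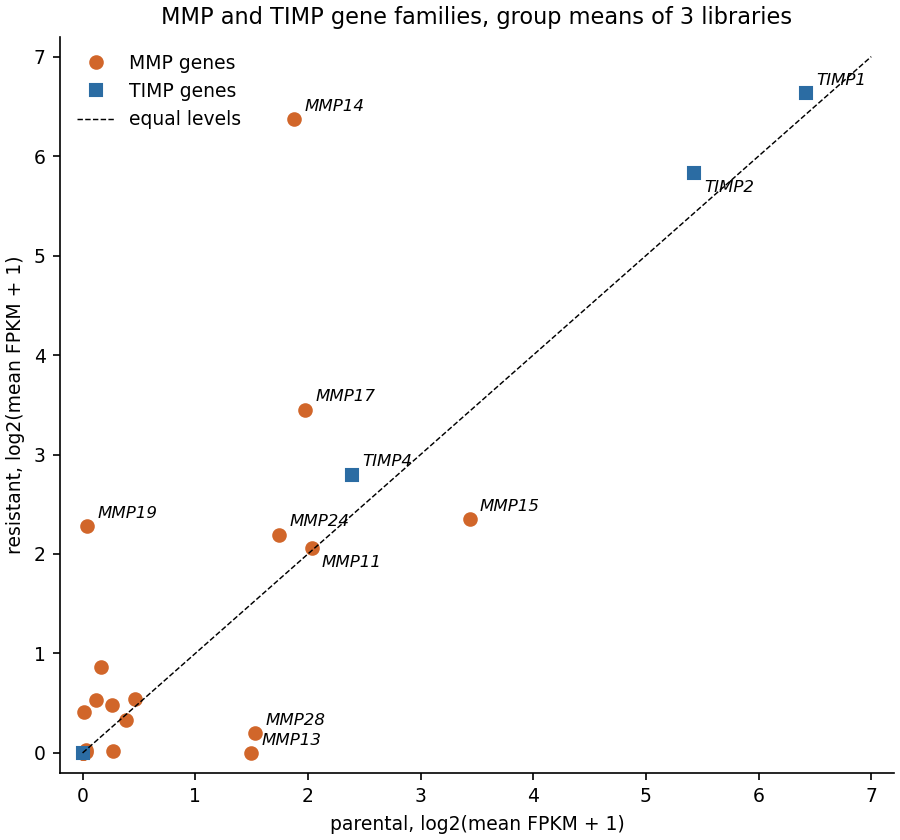
Mean level of each MMP gene (orange circles) and TIMP gene (blue squares) in parental cells (horizontal) and resistant cells (vertical), as log2(mean FPKM + 1) over 3 libraries, with a dashed line at equal levels. MMP14 lies farthest above the line, MMP17 and MMP19 also lie above it, and MMP15, MMP13 and MMP28 lie below it, while the TIMP genes stay close to it.

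Regulators of MMP activity, and the plasminogen system that can activate MMP precursors, moved in both directions. Of 16 listed genes 12 were tested, 6 were higher and 5 lower, with a median of 0.15. In 2 of the 12, SERPINB2 and PCSK5, the mean reached 1 FPKM only in the group where the gene was high. Some difference in means was thus built in for both, though not its size (PCSK5 was named after its values were seen). The urokinase gene PLAU fell from 107.2 ± 11.3 to 20.8 ± 1.62 FPKM (log2 difference -2.31, limma adjusted p = 1.5e-10), and its receptor gene PLAUR from 49.0 ± 2.62 to 8.32 ± 0.681 FPKM (-2.43, limma adjusted p = 1.1e-11). The tissue plasminogen activator gene PLAT rose from 4.61 ± 0.714 to 46.7 ± 6.05 FPKM (3.09, limma adjusted p = 5.0e-09). The gene of their inhibitor PAI-2, SERPINB2, rose from 0.0499 ± 0.0124 to 27.1 ± 4.48 FPKM (4.73, limma adjusted p = 1.7e-12). BSG (basigin, an inducer of MMPs) rose from 216.1 ± 11.5 to 530.6 ± 35.6 FPKM (1.29, limma adjusted p = 4.8e-09).

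The fourth inhibitor gene, TIMP4, was at 4.24 ± 0.225 and 5.95 ± 1.17 FPKM, and RECK, a membrane-anchored MMP inhibitor, at 3.50 ± 0.171 and 3.50 ± 0.259 FPKM without passing (limma adjusted p = 0.985). FURIN, the convertase that cuts the MMP14 precursor, was at 18.8 ± 0.993 and 23.6 ± 2.74 FPKM. RECK, TIMP4 and FURIN were chosen after their values were seen, and TIMP4 (log2 difference 0.39, limma adjusted p = 0.0071) and FURIN (0.31, limma adjusted p = 0.0035) passed.

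The related ADAM and ADAMTS metalloproteinases, which shed membrane proteins and cut proteoglycans, were low for the most part, and 13 of the 25 listed were not tested. Of the 12 tested 10 were higher and 1 lower, with a median of 0.74. In 6 of the 12, ADAM8 among them, the mean reached 1 FPKM in only 1 group. Some difference in means was thus built in, though not its size, and the counts say little of the list. ADAM8 rose from 0.959 ± 0.229 to 6.12 ± 1.41 FPKM (log2 difference 1.85, limma adjusted p = 1.8e-06). The most abundant of them, ADAM15 and ADAM9, were chosen after their values were seen. ADAM15 was at 66.2 ± 2.50 and 90.5 ± 6.29 FPKM (0.44, limma adjusted p = 5.7e-05), and ADAM9 was at 64.8 ± 1.65 and 70.2 ± 3.37 FPKM and did not pass (0.11, limma adjusted p = 0.11).

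Other matricellular genes moved widely. Of 28 listed 12 were tested, 7 were higher and 4 lower, against 39.9% and 38.1% of all tested genes. The median difference was 1.70, with 1 of the 12 at 1 FPKM in only 1 group. The difference reached 1 in size for all 7 and for 2 of the 4, against 9.95% higher and 9.39% lower among all tested genes. CTGF (CCN2) was at 0.941, 1.14 and 1.21 FPKM in parental and 43.2, 57.0 and 35.3 FPKM in resistant libraries (log2 difference 4.44 ± 0.17, limma adjusted p = 2.5e-07). Its relative CYR61 (CCN1) had a log2 difference of 3.03, and FBLN2 (fibulin-2) one of 2.15, from 5.11 ± 0.525 to 26.1 ± 3.07 FPKM. TGFBI, a ligand of integrins, fell from 1430 ± 147 to 200.4 ± 26.3 FPKM (-2.83, limma adjusted p = 4.8e-10). That fall outweighed the rises in the summed level of the list, 1462 to 1775 FPKM in parental and 634 to 734 FPKM in resistant libraries.

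WISP2 (CCN5) was at 30.9, 23.4 and 46.1 FPKM in parental and 9.15, 7.17 and 15.2 FPKM in resistant libraries and passed (difference -1.59 ± 0.39, limma adjusted p = 0.018). It did not pass without parental replicate 1 (limma adjusted p = 0.0577) or without resistant replicate 1 (limma adjusted p = 0.0606). THBS1 and FSTL1 were chosen after their values were seen. THBS1 (thrombospondin-1) was at 32.8 ± 4.97 and 19.3 ± 1.301 FPKM (-0.73, limma adjusted p = 2.9e-05), and FSTL1, which shares a follistatin-like domain with SPARC, at 14.3 ± 1.75 and 65.0 ± 2.92 FPKM (2.11, limma adjusted p = 1.4e-10). The tenascin relative TNR was listed at 0 in all libraries, and it too was chosen afterwards.

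Receptors for fibronectin and tenascin did not follow FN1 down as a group. The 11 listed genes had 12 entries, as ITGB3 has 2 identifiers, and of 8 tested entries 5 were higher and 3 lower, with a median of 0.46, and 2 of the 8, ITGB6 among them, reached 1 FPKM in only 1 group. The integrin subunit gene ITGB3 (ENSG00000259207) rose from 3.48 ± 0.914 to 18.2 ± 1.17 FPKM (2.12, limma adjusted p = 1.2e-06), and ITGB1 had a log2 difference of 2.61. ITGB6, whose product pairs with the alpha-v subunit, was at 11.9, 9.11 and 12.1 FPKM in parental and 0.259, 0.00689 and 0.0270 FPKM in resistant libraries (-3.45, limma adjusted p = 3.5e-10). ITGA5, the alpha subunit of the classical fibronectin receptor, was at 62.9 ± 3.21 and 92.4 ± 7.39 FPKM (0.54, limma adjusted p = 1.7e-05) and was chosen after its values were seen.

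Of 6 matrix crosslinking enzymes 5 were tested, 4 were higher and 0 lower, with a median of 0.77, and 1 of them, LOXL4, reached 1 FPKM in only 1 group. Since 78.0% of all tested genes were called, the count over 5 genes is not read as particular to this list. LOXL4 was at 0.125, 0.166 and 0.157 FPKM in parental and 20.6, 17.6 and 26.0 FPKM in resistant libraries (4.27, limma adjusted p = 1.1e-10), and LOX (lysyl oxidase) at 3.32, 2.81 and 6.40 and at 36.1, 40.8 and 43.1 FPKM (3.04, limma adjusted p = 0.0004). LOXL3 did not pass (limma adjusted p = 0.365), and LOXL1 was under 1 FPKM in both groups.

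**Figure D5:**
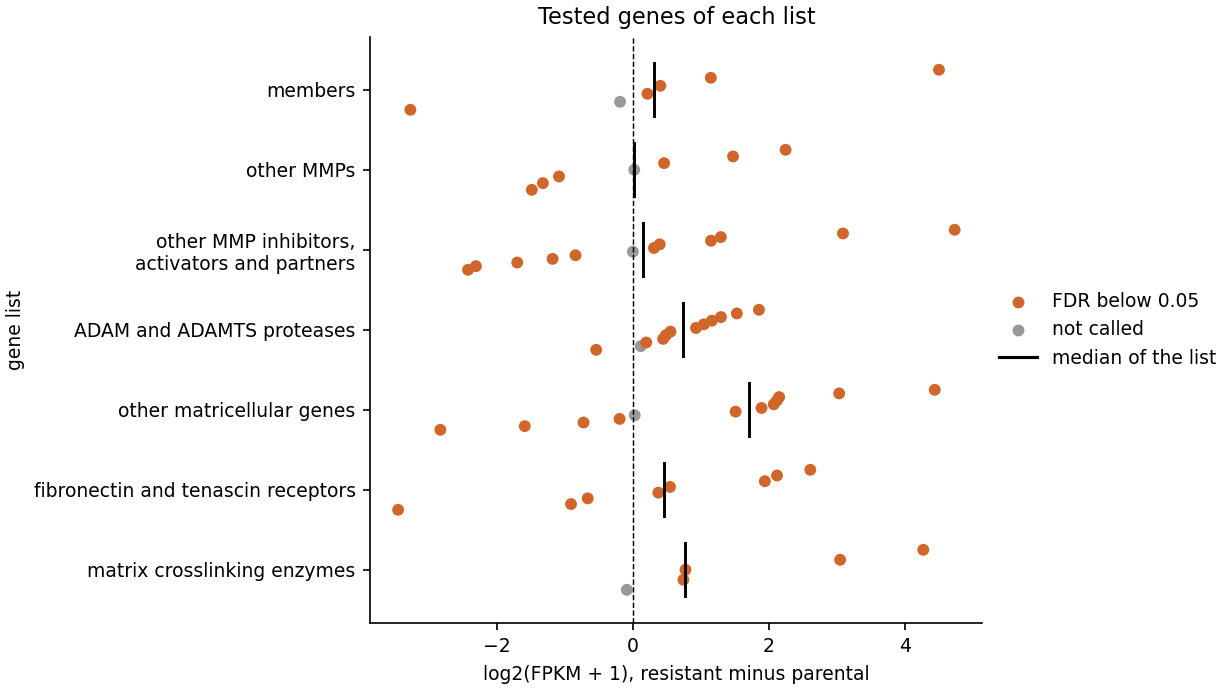
Difference in log2(FPKM + 1), resistant minus parental, of the tested genes of the set ("members") and of 6 related lists, with 1 point per gene, orange where the FDR was below 0.05 and grey otherwise, and a black line at the median of each list. Points lie on both sides of 0 in every list, with medians from 0.02 for the other MMPs to 1.70 for the other matricellular genes.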

How the data were processed

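RNA from 3 parental and 3 resistant H1975 cultures was sequenced with an mRNA library kit, per the labels' protocols, and groups were taken from the sample titles. Mapping to GRCh37 and the tool DESeq, with no role given, are named in the submitters' processing notes; the aligner, quantifier, annotation and use of strand were not given in the sources used. As deposited by the authors, expression is in FPKM, both in 1 series table and in library files. The library files also hold TPM and the mean coverage of each gene, per the file headers. FPKM of table and library files differed by more than 0.00001 in 1 to 4 genes per library.

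Log2(FPKM + 1) values of the whole table were fitted by limma (version 3.58.1, under R version 4.3.3), keeping the 12107 genes whose mean reached 1 FPKM in one of the groups or in both. Group was the only term, moderation was robust with an intensity trend, tests were two-sided and p-values were adjusted by Benjamini-Hochberg. With no read counts, no counting interval can be given and 3 libraries per group set the precision. Scripts were tested on simulated data. The genes, the related lists, the motifs and the tests were chosen with earlier results of these data known. Genes of the lists were named by rule: all 10 of the set, and of each other list at most the 3 largest called differences in each direction that were 1 or more in size (log2) and reached a mean of 5 FPKM in a group. Of the marker lists only levels are given. Other names are marked as chosen afterwards, and 1 gene that the rule names is not reported here. Ratios of protease to inhibitor were tested by exact permutation over libraries. Alternatives were other pseudocounts, filters, scalings, TPM, no trend or robust moderation, a replicate block and leaving out each library. Gene positions are those of the deposited files (GRCh37, counted from 1), and promoter sequences are RefSeq on GRCh38.p14.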

Additional observations from a re-analysis of the deposited data

How the results depend on the processing

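MMP14, FN1, SPARC and TIMP2 kept direction and call in all 15 alternatives, with differences from 4.40 to 4.90, -3.40 to -3.17, 1.10 to 1.197 and 0.35 to 0.46. TIMP1 kept both in 14, and TNC was called in 2. The count of genes of the set called lower, 1, was 2 without the filter on low values (MMP7 added) and 2 with the replicate block (TNC added, difference -0.19, limma adjusted p = 0.0489), and ran from 1 to 2 when a library was left out. With the replicate block 9422 genes were called in place of 9448, and deviations of same-numbered libraries from their group means correlated at -0.135, 0.0761 and 0.0990, so the numbers were not taken to pair libraries, and not every library correlated best with its own number. The counts of all called genes stayed within 8217 and 11014. With 1 FPKM added, the difference in the MMP2 to TIMP2 log2 ratio, 0.0042, changed sign when some libraries were left out. It was -0.041 without parental replicate 3, -0.059 without resistant replicate 1 and -0.0049 without resistant replicate 2. The range over libraries left out was -0.059 to 0.077, and with 0.1 FPKM added the difference was 1.11. Of 70 tested genes of the other lists, 62 kept direction and call in all alternatives. Uncalled differences near 0 changed sign: MMP11 to -0.00088 without parental replicate 2 and -0.083 without resistant replicate 3 (range to 0.111 over libraries left out), SPOCK1 to -0.019 without parental replicate 2 and -0.0104 without resistant replicate 2 (to 0.070), and RECK to 0.029 with TPM, 0.025 without parental replicate 3, 0.0090 without resistant replicate 1 and 0.033 without resistant replicate 2 (from -0.047). ADAM9, ADAM17, FBLN1 and WISP2 changed call. The cause was not tested. No scaling moved the median of all genes by over 0.1, and its largest value was 0.046 with TPM. Low coverage limits what can be said of MMP1, MMP2, MMP7 and TIMP3.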
